A study of Mus musculus with 8 samples.

Results

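The HoxB cluster comprises 9 neighbouring genes, Hoxb1 to Hoxb9, which were taken by their symbols from the 24421 genes of the count files, where all 9 were present. The samples came from R1, a pluripotent line of mouse embryonic stem cells (ESCs), in 2 states. Undiff cells were kept in growth medium with leukaemia inhibitory factor according to the study's methods, while the labels describe every sample as embryoid bodies. Day4 samples were embryoid bodies made from the same line without that factor and then exposed to retinoic acid (RA) for 4 days. The methods and labels differ on the RA dose, which is therefore not printed. Both states were sequenced with ONT Direct RNA, where the RNA strand itself is read in the pore, and with ONT cDNA, where RNA is copied and amplified by PCR first. Each state had 2 replicates on each platform, hence 8 libraries in 4 groups. The replicates of a state were grown and treated separately. By the study's account the RNA of these cultures was used for both platforms. Libraries of different platforms therefore share cultures, and agreement between platforms is not independent replication. No untreated embryoid bodies were analysed here, so the parts of RA, of embryoid body formation, of the withdrawn factor and of time in culture cannot be told apart.

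Hox genes encode transcription factors that bind DNA through a homeodomain and give cells their position along the body axis. Within a cluster the genes all point the same way, and their order on the chromosome follows their order of activation and their place in the embryo: the genes at the 3′ end, Hoxb1 first, come on early and reach far forward into the hindbrain, and those at the 5′ end come on later and further back. RA acts through nuclear receptors bound near the 3′ genes, and in ESCs the clusters are held silent by Polycomb proteins until such a signal arrives.

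In GRCm38 the cluster spans chr11:96271457-96368256, a length of 96.8 kb, with all 9 genes on the plus strand. Hoxb9 (ENSMUSG00000020875.9) lies at chr11:96271457-96276595 and Hoxb8 (ENSMUSG00000056648.5) at chr11:96281905-96285315. These are followed by Hoxb7 (ENSMUSG00000038721.8) at chr11:96286623-96290162, Hoxb6 (ENSMUSG00000000690.5) at chr11:96292476-96301569 and Hoxb5 (ENSMUSG00000038700.4) at chr11:96303336-96306121. The 3′ portion holds Hoxb4 (ENSMUSG00000038692.8) at chr11:96318267-96321638, Hoxb3 (ENSMUSG00000048763.11) at chr11:96323326-96347930, Hoxb2 (ENSMUSG00000075588.6) at chr11:96350525-96354012 and Hoxb1 (ENSMUSG00000018973.2) at chr11:96365752-96368256. The longest annotated transcripts ranged from 1291 bases for Hoxb7 to 3190 bases for Hoxb3. A further gene of the complex, Hoxb13, lies 74.01 kb beyond Hoxb9 and is described as a neighbour.

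The homeobox, 180 bases that encode the homeodomain, is what the members have in common. That of Hoxb8 is shown because this gene differed most clearly between platforms below. Capitals mark codons 42 to 58, which hold the recognition helix that lies in the major groove of DNA, as read from a GENCODE vM21 coding transcript.
Hoxb8: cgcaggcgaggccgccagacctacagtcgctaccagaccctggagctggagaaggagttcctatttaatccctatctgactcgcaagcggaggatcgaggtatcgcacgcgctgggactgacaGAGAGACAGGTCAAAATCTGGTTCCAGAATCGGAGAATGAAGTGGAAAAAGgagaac
The homeoboxes of the neighbours Hoxb6 and Hoxb7 were identical in 88.9% of their bases. Reads that might match more than one Hox gene were not examined.

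Promoter windows were at hand for 3 of the 9 members, and they are shown because each of these genes was called higher at Day4 on at least 1 platform. Each runs over the 250 bases before the RefSeq start in GRCm38.p6, on the plus strand, at chr11:96365508-96365757 for Hoxb1, chr11:96318017-96318266 for Hoxb4 and chr11:96281655-96281904 for Hoxb8. Capitals mark matches to the motifs named after the sequences.
Hoxb1: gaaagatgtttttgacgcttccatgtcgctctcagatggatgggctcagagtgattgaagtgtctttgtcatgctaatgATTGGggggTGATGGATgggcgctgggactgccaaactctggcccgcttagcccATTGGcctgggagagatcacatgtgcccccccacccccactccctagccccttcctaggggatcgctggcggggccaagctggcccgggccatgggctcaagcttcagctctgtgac
Hoxb4: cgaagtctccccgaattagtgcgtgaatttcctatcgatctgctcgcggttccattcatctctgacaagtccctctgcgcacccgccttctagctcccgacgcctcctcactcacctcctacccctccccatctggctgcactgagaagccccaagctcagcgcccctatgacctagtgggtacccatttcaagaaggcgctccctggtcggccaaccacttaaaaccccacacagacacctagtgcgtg
Hoxb8: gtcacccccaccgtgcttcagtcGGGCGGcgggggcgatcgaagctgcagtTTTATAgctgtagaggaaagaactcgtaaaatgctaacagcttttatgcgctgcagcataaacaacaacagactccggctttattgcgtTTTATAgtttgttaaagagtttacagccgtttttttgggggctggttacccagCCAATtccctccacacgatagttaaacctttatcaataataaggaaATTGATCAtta
GC content was 59.2%, 58% and 44.4% in this order, against a median of 52.4% over 32851 windows of this length, and the windows held 7, 14 and 12 CG dinucleotides against a median of 6. On both strands, the letters TATAAA were searched for (found in 12.4% of all windows), CCAAT (33.8%), GGGCGG (32.7%), TGATNNAT, the form bound by PBX and HOX proteins together (7.68%), and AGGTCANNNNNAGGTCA, a direct repeat of the half-site that RA receptors bind (0.00913%). Hoxb1 had CCAAT at 171 and 117 bases before the start on the minus strand and TGATNNAT at 162 bases before it on the plus strand. Hoxb8 had TATAAA at 199 and 110 bases before the start on the minus strand, GGGCGG at 227, CCAAT at 57 and TGATNNAT at 11 bases before it. No match was found in the Hoxb4 window, which says only that these letters are not there.

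Reads on genes ranged from 283461 to 907489 in the Direct RNA libraries and from 948657 to 2088592 in the cDNA libraries. Levels are given as CPM, reads on a gene scaled to 1000000 reads on genes, and 3 reads, the floor used here, corresponded to 1.44 to 10.6 CPM in the single libraries. Of 8 pluripotency markers 8 were called lower at Day4 on both platforms by DESeq2, beside 7.67% and 9.24% of all genes with a mean count of at least 5, and their summed level ran from 10700 to 23500 CPM in Undiff and from 85 to 923 CPM at Day4. Markers of other cell types were also present at Day4. Endoderm markers summed to 674 to 1040 CPM in Direct RNA and 205 to 245 CPM in cDNA. Fibroblast and mesenchyme markers summed to 1270 to 2980 CPM and 235 to 249 CPM. In Undiff these sums were at most 27.5 and 14.3 CPM. DESeq2 called 5 and 4 of 9 endoderm and 5 and 4 of 8 mesenchyme markers higher (beside 9.54% and 8.69%) and 0 lower. By edgeR in cDNA, 5 and 4 were higher (beside 17%) and Amn and Thy1 lower (beside 15.6%). Col3a1 held most of the mesenchyme sum in Direct RNA (1850 and 847 CPM). The genes just named were picked after their values were seen. Mesoderm markers summed to at most 12.1 CPM in Undiff and, at Day4, to 166 to 300 CPM on Direct RNA and 46.3 to 87.1 CPM on cDNA, with 3 of 8 called higher on each platform by DESeq2 (beside 9.54% and 8.69%), and T had no Day4 read. Hindbrain and spinal cord markers summed to 89.5 to 106 CPM and 11.4 to 15.4 CPM, with no read on Egr2 or Olig2. Of 10 neural progenitor markers Tubb3, a neuronal tubulin gene, was called lower on both platforms by DESeq2 and edgeR, Fabp7, a radial glia gene, higher in cDNA by both tools, and Nes, an intermediate filament gene named here after its values were seen, higher on both platforms by edgeR alone. These are mixed bulk samples, in which fewer cells of a type and less RNA per cell cannot be told apart, and the part of these cell types in the HoxB levels was not tested.

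Undiff cells had almost no HoxB reads, and at Day4 the whole cluster was read. The Undiff libraries held 2 HoxB reads in Direct RNA and 5 in cDNA, namely 1 on Hoxb8 and 1 on Hoxb9 in Direct RNA replicate 2, 3 on Hoxb7 in cDNA replicate 1 and 2 on Hoxb1 in cDNA replicate 2. Summed over the 9 genes, Direct RNA gave 0 and 2.20 CPM in Undiff and 515 and 834 CPM at Day4 (674 ± 225 CPM, SD, n = 2). The cDNA libraries gave 3.16 and 0.958 CPM in Undiff and 413 and 447 CPM at Day4 (430 ± 24.1 CPM, SD, n = 2). Both Day4 libraries of a platform therefore lay far above both Undiff libraries, while the Direct RNA replicates differed more from each other than the cDNA replicates did.

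DEGs were called with DESeq2 on all genes where the adjusted p-value did not exceed 0.05, the log2 fold change reached 1 in either direction and the mean normalized count reached 5. In Direct RNA 6 of the 9 members were higher at Day4 (Hoxb2, Hoxb3, Hoxb4, Hoxb5, Hoxb6 and Hoxb8), against 9.54% of the 9646 genes with that mean count, which are called the genes tested below. In cDNA 7 of the 9 were higher (Hoxb1 to Hoxb7), against 8.69% of 10271 genes. With 0 members lower, also at an unadjusted p below 0.05 and by edgeR, the shares of lower genes were 7.67% and 9.24%. The quasi-likelihood test of edgeR called the same number of members, 6 and 7, against a larger share of the same genes tested, 18.7% higher and 15.1% lower in Direct RNA and 17% higher and 15.6% lower in cDNA. Every called member passed the mean count only through its Day4 reads, with 0 to 3 reads in Undiff, so that these counts describe the members and support nothing further. Without regard to the mean count, both Day4 libraries exceeded both Undiff libraries for 9 of 9 members in Direct RNA and 8 of 9 in cDNA, where 20.2% and 25.2% of all 24421 genes did so.

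**Figure D1:**
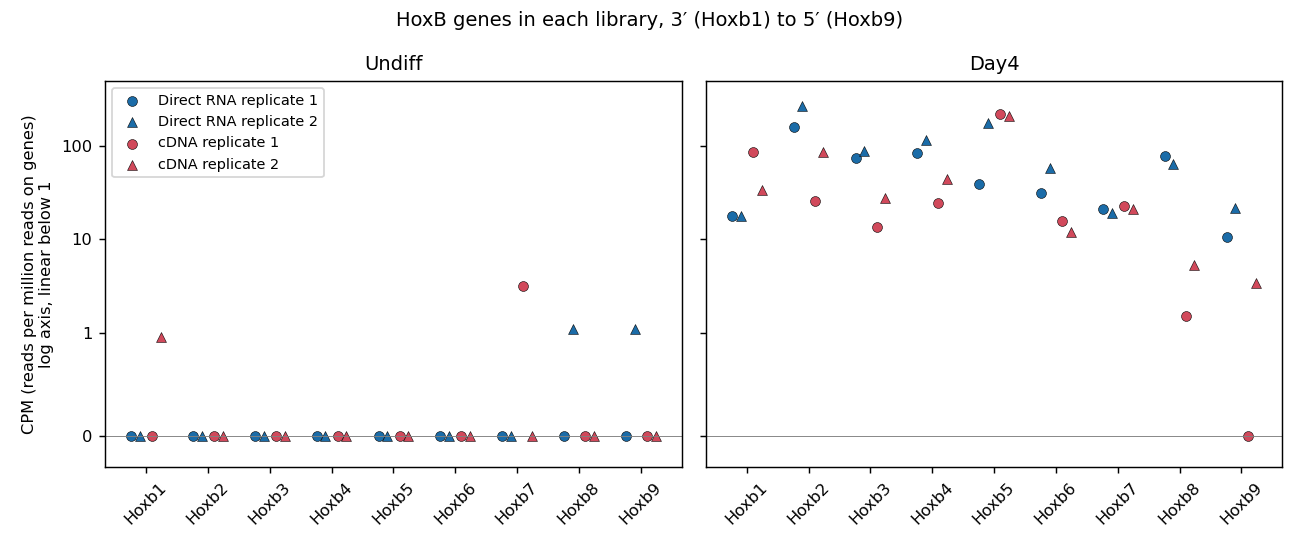
CPM of each HoxB gene in each of the 8 libraries, in Undiff (left) and Day4 (right), on a log axis that is linear below 1; blue is Direct RNA, red is cDNA, circles are replicate 1 and triangles replicate 2. Undiff libraries sit at 0 apart from 4 points of 0.958 to 3.16 CPM, and at Day4 the cDNA points of Hoxb8 and Hoxb9, at 0 to 5.3 CPM, lie lowest.

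Hoxb1, which specifies a segment of the hindbrain and is a direct target of RA receptors, was the member with the fewest reads among the 3′ genes in Direct RNA. It had 5 and 13 reads at Day4 there (17.6 CPM in each library) and 0 in Undiff, at least 7.3-fold higher when Undiff is set to 3 reads over the group. Its mean count of 4.24 was below the minimum, so that it was not called although DESeq2 gave an adjusted p of 0.0458. In cDNA it had 113 and 70 reads at Day4 (85.7 and 33.7 CPM) and 0 and 2 in Undiff, a ratio of 81.8 (95% counting interval 22.3 to 681), with an adjusted p of 7.78e-07 in DESeq2. Both cDNA replicates exceeded both Direct RNA replicates, and the cDNA replicates differed 2.54-fold.

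Hoxb2, a target of Hoxb1 in the hindbrain, was the most abundant member in Direct RNA. Per kb as well as in reads it led there, and it reached 159 and 270 CPM at Day4 on that platform from 45 and 199 reads, and 25.8 and 87.1 CPM in cDNA from 34 and 181 reads. No Undiff library had a read, which puts the increase at 100-fold or more in Direct RNA (DESeq2 adjusted p = 8.71e-10) and at 64-fold or more in cDNA (DESeq2 adjusted p = 1.1e-06). Its cDNA replicates differed 3.38-fold.

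Hoxb3 and Hoxb4, which pattern the posterior hindbrain and in the case of Hoxb4 also promote the growth of blood stem cells, had no Undiff read in any library. Hoxb3 reached 74.1 and 89.5 CPM in Direct RNA and 13.7 and 27.9 CPM in cDNA. This was at least 35-fold and 22-fold above Undiff, with DESeq2 adjusted p-values of 5.15e-06 and 0.000566. For Hoxb4 the Day4 levels were 84.7 and 115 CPM in Direct RNA against 24.3 and 44.8 CPM in cDNA, which is no less than 44-fold and 37-fold above the Undiff floor (DESeq2 adjusted p = 1.01e-06 and 2.15e-05). Per kb of the longest transcript Hoxb4 lay above Hoxb3 in each Day4 library, but per kb of the median coding transcript the Direct RNA means turned, to 39 for Hoxb4 and 43.3 for Hoxb3. More than the other members, Hoxb3 shares exon sequence with an antisense gene: 2250 bases (52.9% of its exons) overlap Hoxb3os, as do 953 bases (27.3%) of Hoxb2, and Hoxb3os is not among the counted symbols.

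Hoxb5, which acts in neural crest that forms the enteric nervous system and marks long-lived blood stem cells, was the most abundant member in cDNA and the most variable in Direct RNA. In cDNA it had 294 and 439 reads at Day4, 223 and 211 CPM. In Direct RNA it had 11 and 131 reads, 38.8 and 178 CPM, a 4.58-fold difference between replicates. Undiff libraries had none. With the Day4 reads of a platform pooled, the increase was at least 210-fold in cDNA (DESeq2 adjusted p = 1.05e-12) and 58-fold in Direct RNA (DESeq2 adjusted p = 0.00939). The pooled Direct RNA level was 139 CPM, so the 58-fold bound does not hold for replicate 1 alone. Its antisense neighbour Hoxb5os shares 100 exon bases with it and rose as well, from 0 Undiff reads to 14.1 and 28.5 CPM in Direct RNA and 81.2 and 57.3 CPM in cDNA (adjusted p = 0.0222 and 8.31e-08). For gene counts the methods name a strand-specific run for Direct RNA alone, and where counting ignores the strand the reads of such a pair cannot be told apart where they overlap.

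Hoxb6 and Hoxb7 lie side by side. Hoxb6 is expressed in lateral plate mesoderm and Hoxb7 in the ureteric bud of the kidney. Hoxb6 reached 31.8 and 58.3 CPM at Day4 in Direct RNA and 15.9 and 12 CPM in cDNA, or at least 21-fold and 13-fold above Undiff (DESeq2 adjusted p = 0.000425 and 0.00388). Hoxb7 had 21.2 and 19 CPM in Direct RNA and 22.8 and 21.2 CPM in cDNA, so that its 4 Day4 libraries lay close together. In Direct RNA it was at least 8.2-fold higher, but at a mean count of 4.82 it was not called (DESeq2 adjusted p = 0.0286). In cDNA its 74 Day4 reads stood against 3 Undiff reads, all in replicate 1, a ratio of 22.1 (95% counting interval 7.26 to 109), and DESeq2 estimated 3.30 on the log2 scale (SE 1.01, adjusted p = 0.0138).

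Hoxb8, whose protein blocks the maturation of myeloid cells when kept on, and Hoxb9, which patterns the thoracic skeleton, are the 5′ end of the contiguous cluster. Hoxb8 had 22 and 48 reads at Day4 in Direct RNA (77.6 and 65.1 CPM) against 0 and 1 in Undiff, a ratio of 86.1 (95% counting interval 15 to 3450, DESeq2 adjusted p = 4.28e-05). In cDNA only 2 and 11 reads fell on it (1.52 and 5.3 CPM), at least 3.8-fold above Undiff and not called (adjusted p = 0.367). Hoxb9 had 3 and 16 reads in Direct RNA (10.6 and 21.7 CPM) against 0 and 1 in Undiff, a ratio of 23.4 (3.72 to 971), and 0 and 7 reads in cDNA (0 and 3.37 CPM). Hoxb9 was not called on either platform (DESeq2 adjusted p = 0.136 and 0.777), and with 0 reads in cDNA Day4 replicate 1 a level up to 2.28 CPM was not detectable there.

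Some calls depended on single libraries. Leaving out 1 library leaves 1 sample in its group, which is then assumed to vary like the other group. In Direct RNA Hoxb2, Hoxb3, Hoxb4 and Hoxb8 were called whichever library was left out, whereas Hoxb5 lost its call without Undiff replicate 1 (DESeq2 adjusted p = 0.0976), Undiff replicate 2 (0.24) or Day4 replicate 2 (0.107). Its log2 fold change was 4.03, 3.69 and 4.09 in these fits, against 4.71 with all libraries and 6.71 without Day4 replicate 1. Hoxb6 lost it without Undiff replicate 2 (0.146) or Day4 replicate 2 (0.188), at 3.93 and 3.71 against 5.23. In cDNA Hoxb1, Hoxb2, Hoxb4 and Hoxb5 were called throughout. Hoxb3 and Hoxb6 lost their calls without Undiff replicate 2 (0.083 and 0.184) or Day4 replicate 2 (0.175 and 0.111), Hoxb6 also without Day4 replicate 1 (0.24), and Hoxb7 without any of these 3 (0.394 to 0.472). The log2 fold change of Hoxb3 stayed between 4.00 and 4.98, that of Hoxb6 between 3.33 and 4.48, and that of Hoxb7 ran from 2.03 without Undiff replicate 2 to 5.11 without Undiff replicate 1, which holds its 3 Undiff reads.

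Along the cluster, levels at Day4 did not fall evenly from the 3′ to the 5′ end. Levels between genes were compared as CPM per kb of the longest transcript. Plain CPM is the alternative, since each nanopore read comes from a single molecule whatever its length. In Direct RNA the order was Hoxb2 at 68.4, Hoxb4 at 39.0, Hoxb5 at 38.8, Hoxb8 at 27.1, Hoxb3 at 25.6, Hoxb6 at 22.9, Hoxb7 at 15.5, Hoxb1 at 8.45 and Hoxb9 at 6.27 CPM per kb. Neighbours in this order overlapped in their replicates except Hoxb2 and Hoxb4, Hoxb7 and Hoxb1, and, barely (8.45 against 8.43 CPM per kb), Hoxb1 and Hoxb9. In cDNA it was Hoxb5 at 78.0, Hoxb1 at 28.6, Hoxb2 at 18.0, Hoxb7 at 17, Hoxb4 at 13.5, Hoxb6 at 7.12, Hoxb3 at 6.52, Hoxb8 at 1.29 and Hoxb9 at 0.655 CPM per kb. Here Hoxb5 stood clear of Hoxb1, Hoxb4 of Hoxb6 and Hoxb3 of Hoxb8, and the other neighbours overlapped. By plain CPM the Direct RNA order had Hoxb5 at rank 2, Hoxb4 at 3, Hoxb3 at 4 and Hoxb8 at 5. In cDNA, plain CPM put Hoxb4 above Hoxb7 and Hoxb3 above Hoxb6, and the remaining ranks on both platforms stayed.

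Spearman coefficients of level and paralog number were -0.35 (Direct RNA) and -0.633 (cDNA) across 9 genes. By plain CPM they were -0.417 and -0.733. The genes are not independent replicates and share the same libraries, and no test was run. Both platforms had Hoxb9 lowest. They differed at the 3′ end, where Hoxb1 had rank 8 per kb in Direct RNA and rank 2 in cDNA, and at Hoxb8, with rank 4 in Direct RNA and rank 8 in cDNA. Between platforms, the Spearman coefficient of the mean CPM was 0.5. The longest transcripts of Hoxb2 and Hoxb5 are unspliced models that retain an intron; with the median length of the coding transcripts instead, Hoxb2 remained first (132 CPM per kb) and Hoxb8 moved from rank 4 to 2 (62.5 CPM per kb) and Hoxb4 from 2 to 5 in Direct RNA, below Hoxb3 at rank 4, and the Spearman coefficient there was -0.233. In cDNA Hoxb5 remained first (115 CPM per kb), while Hoxb2 passed Hoxb1 and Hoxb3 passed Hoxb6.

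**Figure D2:**
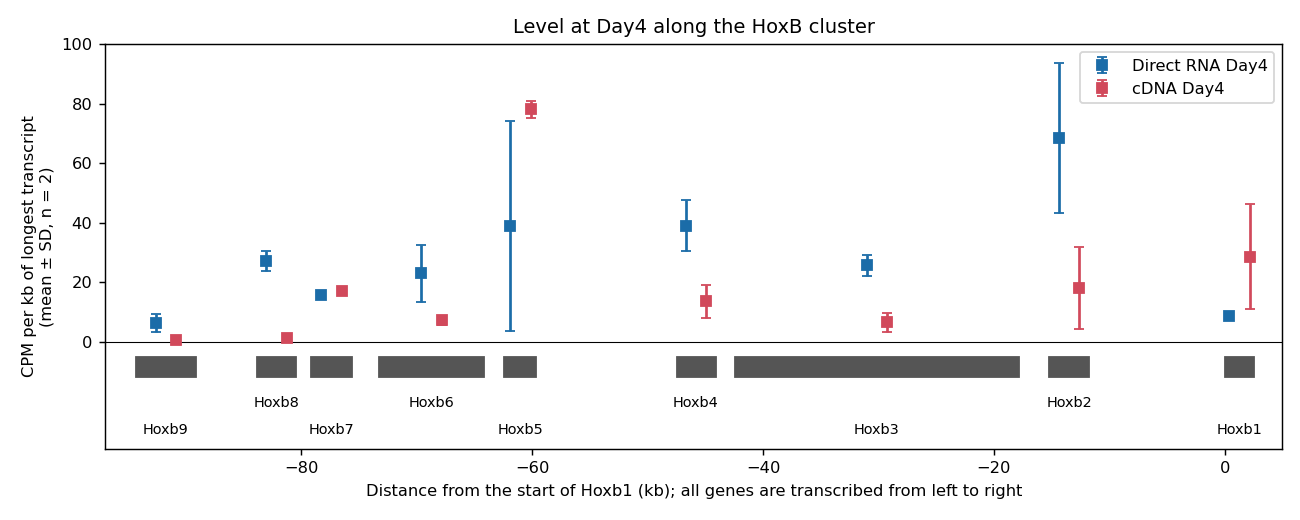
Mean level at Day4 in CPM per kb of the longest transcript (bars are SD, n = 2) at each gene's place in the cluster, in kb from the start of Hoxb1; grey boxes are the genes, blue is Direct RNA and red is cDNA. Direct RNA is highest at Hoxb2 (68.4) and cDNA at Hoxb5 (78.0), and the platforms lie closest at Hoxb7 (15.5 and 17).

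The composition of the HoxB reads differed between platforms. In the Day4 Direct RNA libraries Hoxb1 to Hoxb4 made up 65.1% (95% Wilson interval 57% to 72.3%) and 59% (55.1% to 62.8%) of the HoxB reads. In the cDNA libraries they made up 36.2% (32.3% to 40.3%) and 43.3% (40.2% to 46.5%). The widest single gap was that of Hoxb5, at 54% and 47.3% of the cDNA reads against 7.53% and 21.3% of the Direct RNA reads. Counted with Hoxb5, the 3′ share was 90.3% and 90.6% in cDNA and 72.6% and 80.3% in Direct RNA, so that the order of the platforms turned with the place of the split. The 5′ genes Hoxb7 to Hoxb9 held 21.2% and 12.7% of the Direct RNA reads but 5.88% and 6.68% of the cDNA reads, and their intervals did not overlap between platforms (10.3% to 28.6% and 4.2% to 8.47%). Within these 3 genes Hoxb8 held 15.1% and 7.8% in Direct RNA against 0.368% and 1.19% in cDNA, while Hoxb7 had the larger share in cDNA, 5.51% and 4.74% against 4.11% and 2.28%, with intervals that overlapped except between Direct RNA replicate 2 and cDNA replicate 1. These intervals cover counting error only, since PCR copies are not independent molecules, and no test between groups of 2 was run.

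**Figure D3:**
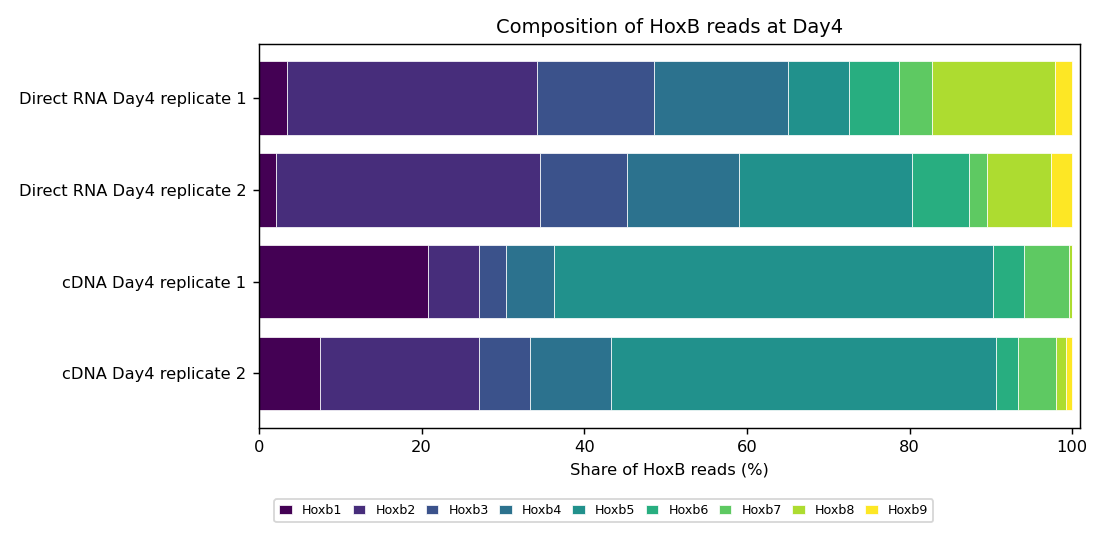
Share of the HoxB reads on each gene in the 4 Day4 libraries, from Hoxb1 (dark) to Hoxb9 (yellow), each bar adding up to all HoxB reads of the library. Hoxb2 is the widest block in Direct RNA (30.8% and 32.4%), Hoxb5 in cDNA (54% and 47.3%), and Hoxb8 narrows from 15.1% and 7.8% to 0.368% and 1.19%.

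A direct test of the platforms within Day4 placed 3 members apart. The test took the libraries as independent, although the platforms share cultures. Hoxb1 was higher in cDNA than in Direct RNA by 2.38 on the log2 scale (SE 0.67, DESeq2 adjusted p = 0.00342) and Hoxb5 by 1.61 (SE 0.55, adjusted p = 0.0205). Hoxb8 was lower in cDNA, at -3.29 on the log2 scale (SE 0.71, DESeq2 adjusted p = 6.76e-05). Its mean levels were 71.3 ± 8.86 CPM in Direct RNA against 3.41 ± 2.67 CPM in cDNA (SD, n = 2). The mean count of Hoxb8 rested mostly on its 22 and 48 Direct RNA reads, beside 2 and 11 in cDNA. Its call therefore describes this gene and supports nothing further. These 2 higher and 1 lower of 9 members stood beside 18.2% higher and 13.8% lower among the 10381 genes tested here, so that differences between platforms were common. By edgeR 2 members were higher (Hoxb1 and Hoxb5) and 4 lower (Hoxb2, Hoxb3, Hoxb8 and Hoxb9), against 25.8% and 23.7% of the genes tested.

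For the other members DESeq2 gave log2 differences of -1.20 (SE 0.53) for Hoxb2, -1.20 (SE 0.57) for Hoxb3, -0.79 (SE 0.53) for Hoxb4, -0.89 (SE 0.68) for Hoxb6, 0.83 (SE 0.71) for Hoxb7 and -1.99 (SE 1.06) for Hoxb9, with adjusted p-values from 0.0937 to 0.522. In CPM, the libraries of the platforms did not overlap for any of the 9 genes, 3 being higher in cDNA and 6 lower, though Hoxb7 barely (21.17 against 21.18 CPM). This was frequent as well, at 24.5% and 51.6% of the genes tested and 13.9% and 26.2% of all 24421. The scale matters here: the median gene was lower in cDNA by CPM, with a log2 difference of -0.643, and close to 0 (0.065) after the scaling of DESeq2. The direction of each of the 9 members was the same on both scales.

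With 1 of the 4 libraries left out, and the lone library of its group assumed to vary like the other group, Hoxb8 was called each time, at log2 differences between -3.59 and -2.67 (DESeq2 adjusted p between 0.00873 and 0.0306). Hoxb1 was not called without cDNA replicate 1 (log2 difference 1.33, adjusted p = 0.583), Direct RNA replicate 1 (2.20, adjusted p = 0.0679) or Direct RNA replicate 2 (2.28, adjusted p = 0.0975). Hoxb5 was not called without Direct RNA replicate 1 (log2 difference 0.91, adjusted p = 0.39), cDNA replicate 1 (1.16, adjusted p = 0.81) or cDNA replicate 2 (1.44, adjusted p = 0.659), and was at 3.10 without Direct RNA replicate 2. Of the members not called, Hoxb2 ran from -1.96 without cDNA replicate 2 to -0.62 without cDNA replicate 1, Hoxb6 from -1.24 without Direct RNA replicate 1 to -0.27 without Direct RNA replicate 2, and Hoxb9 from -2.56 without cDNA replicate 2 to -0.98 without Direct RNA replicate 2. Hoxb3 ran from -1.44 to -0.82, Hoxb4 from -1.04 to -0.45 and Hoxb7 from 0.61 to 0.93, so that no sign turned. Levels of mesenchyme and endoderm markers also differed between the platforms at Day4, with 4 of 8 mesenchyme markers (Col1a1, Col1a2, Col3a1 and Postn) and 4 of 9 endoderm markers (Sox17 and Afp among them) called lower in cDNA and Ttr higher, beside 13.8% lower and 18.2% higher among all genes tested; their part in the HoxB differences was not tested.

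**Figure D4:**
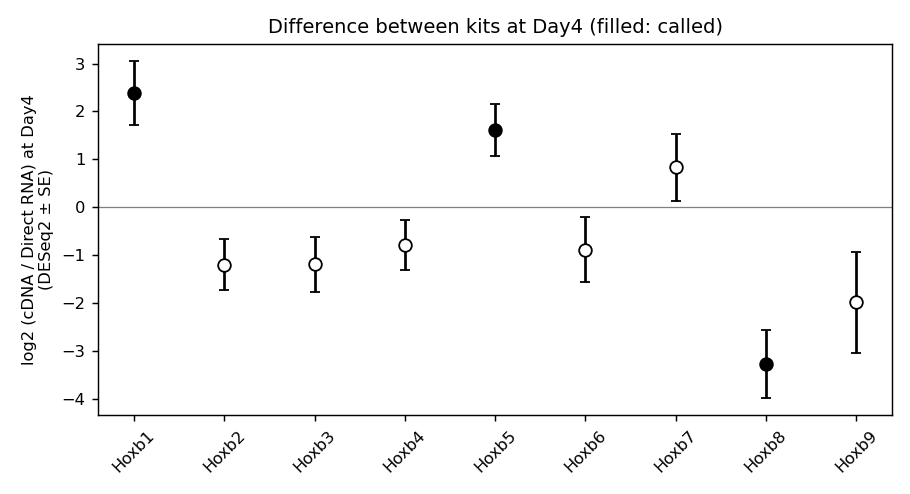
DESeq2 log2 ratio of cDNA over Direct RNA at Day4 for each HoxB gene, with its standard error; filled points were called. Hoxb1 (2.38) and Hoxb5 (1.61) lie above 0 and Hoxb8 (-3.29) farthest below it.

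Whether the change between states itself differed between platforms was tested as an interaction over all 8 libraries. The main fit took these libraries as independent, although the platforms share cultures. With a replicate block by culture, 0 members were called as well. Of the 9 members 0 were called by DESeq2, beside 0.0116% of the 17267 genes with an adjusted p, and 0 by edgeR, beside 0.0811%, and 0 had an unadjusted p below 0.05 in either. Estimates ran from -2.09 for Hoxb7 to 2.07 for Hoxb5 on the log2 scale, with standard errors of 2.14 to 3.21. With Undiff reads at or near 0 these errors are wide: that of Hoxb8 (interaction -1.94, SE 2.33) leaves room both for 0 and for the difference seen within Day4.

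Genes in and beside the cluster were followed by a list of 17 symbols, of which 12 were in the files. Hoxb13, at the far 5′ end, had 1 Undiff read on each platform and 10.6 and 20.3 CPM at Day4 in Direct RNA and 28.1 and 38.5 CPM in cDNA. It was called higher in cDNA (log2 fold change 5.23, SE 1.10, DESeq2 adjusted p = 6.02e-05) and not in Direct RNA (adjusted p = 0.152). Further out, Calcoco2, an autophagy receptor gene, fell by 3.09 in Direct RNA and by 2.38 in cDNA on the log2 scale (adjusted p = 1.2e-05 and 0.0487), and Atp5g1, an ATP synthase subunit gene, fell by 1.49 and 1.60 (0.0169 and 0.00418). Mir10a and Mir196a-1, microRNA genes in or beside the cluster, had no reads in libraries made from polyadenylated RNA.

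The other Hox clusters rose too. At Day4 the HoxA sum was 877 ± 277 CPM in Direct RNA against 297 ± 29.9 CPM in cDNA, HoxC 744 ± 49.9 and 359 ± 8.17 CPM, and HoxD 138 ± 13.7 and 96.2 ± 16.3 CPM (SD, n = 2). In Direct RNA and cDNA, DESeq2 called 5 and 6 of 11 HoxA genes, 5 and 5 of 9 HoxC genes and 3 and 2 of 9 HoxD genes higher at Day4, beside 9.54% and 8.69% of all genes tested.

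Paralogs of the genes that differed between platforms did not all differ in the same direction. Hoxa5 had 293 and 563 CPM in Direct RNA and 48.6 and 37.5 CPM in cDNA, lower in cDNA by DESeq2 (log2 difference -2.46, SE 0.48, adjusted p = 7.39e-06), where Hoxb5 was higher. Hoxd8 had 35.3 and 28.5 CPM in Direct RNA and 74.3 and 59.2 CPM in cDNA, higher in cDNA (1.77, SE 0.56, adjusted p = 0.0111), where Hoxb8 was lower. These paralogs were chosen for comparison after their values were seen, and the difference in platform effect between paralogs was not tested.

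**Figure D5:**
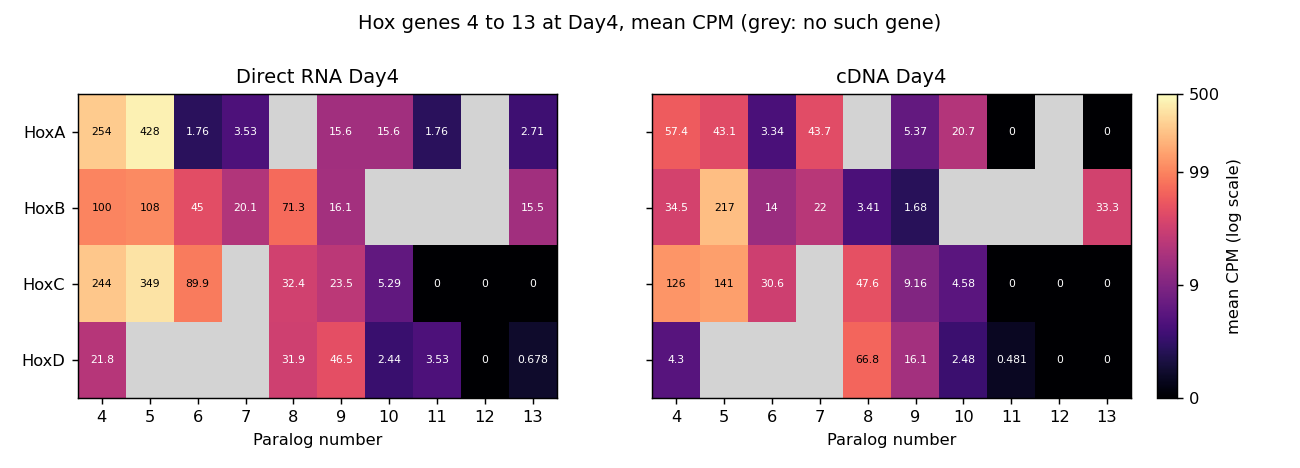
Mean CPM at Day4 (n = 2, log colour scale) of the Hox genes with paralog numbers 4 to 13 by cluster and number, in Direct RNA (left) and cDNA (right); grey cells are genes that do not exist in the mouse. The cells of Hoxb5 (108 and 217) and Hoxa5 (428 and 43.1) change in opposite directions between panels.

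The RA pathway and the partners of Hox proteins changed alongside. Of 24 RA pathway genes 14 were higher at Day4 in Direct RNA and 10 in cDNA by DESeq2, and 0 were lower, with 1 and 0 at an unadjusted p below 0.05 and 0 and 1 by edgeR, in each case Rarg, an RA receptor gene named here after its value was seen. By edgeR 15 and 12 of the 24 genes were higher, beside 18.7% and 17% of all genes tested. The edgeR shares of lower genes were 15.1% and 15.6%. Over all genes tested, DESeq2 called 9.54% and 8.69% higher and 7.67% and 9.24% lower in Direct RNA and cDNA, which also applies to the lists that follow. Among those called, Rarb, an RA receptor gene that RA itself induces (log2 fold change 8.07, SE 1.04), and Cyp26b1, which encodes an enzyme that degrades RA (7.54, SE 0.91), were highest and Crabp1 (2.18, SE 0.53) and Rxra (2.16, SE 0.71) lowest in Direct RNA. In cDNA the highest were Dhrs3, a retinaldehyde reductase gene (7.87, SE 0.51), and Cyp26b1 (6.90, SE 0.97), and the lowest Crabp2 (3.23, SE 0.40) and Stra8 (2.94, SE 0.78).

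Of 9 genes for the cofactors that bind DNA together with Hox proteins, 5 were higher on each platform by DESeq2, and 0 lower also at an unadjusted p below 0.05 and by edgeR. Meis2 (6.91, SE 0.93 in Direct RNA and 7.62, SE 1.12 in cDNA) and Meis1 (5.43, SE 1.01 and 6.09, SE 0.59) led this list, and Pbx2 was the lowest of those called (2.28, SE 0.40 and 2.32, SE 0.57). Of 13 regulators known to act on the cluster, DESeq2 called 3 higher and 3 lower in Direct RNA and 2 higher and 1 lower in cDNA. The lower count in cDNA is close to the 9.24% of all genes tested, so it says nothing about the list. Nr2f2 (7.38, SE 1.08 and 9.14, SE 0.70) and Nr2f1 (5.79, SE 0.98 and 7.79, SE 1.11), which encode orphan nuclear receptors, rose on both platforms. Eed, a Polycomb gene, fell by 2.30 (SE 0.41) and 2.05 (SE 0.42), and Gbx2 fell by 3.32 (SE 0.93) in Direct RNA. The median log2 fold change was 3.46 and 3.08 for the tested RA pathway genes, 3.27 and 3.14 for the cofactors and -0.316 and -0.31 for the regulators, beside 0.0252 and 0.00186 over all genes tested.

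Outside the Hox clusters, the genes whose levels most resembled the summed HoxB level over the 8 libraries were Ptn (Pearson r 0.993), Alcam (0.993), Gypc (0.992), Zadh2 (0.992) and Smarca2 (0.992), ranked by log2(CPM + 1) among 9107 genes. Ptn, a secreted growth factor gene, had 0 to 2.2 CPM in the Undiff libraries and, at Day4, up to 713 CPM in Direct RNA and 501 to 608 CPM in cDNA. All of these levels share the step between states, and 225 genes reached an r of at least 0.95. Within the cluster, the coefficient with the sum of the other members was 0.913 to 0.978 for Hoxb1 to Hoxb7, 0.792 for Hoxb8 and 0.709 for Hoxb9.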

How the data were processed

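Poly(A) RNA of 8 libraries was measured. For each gene symbol, raw read counts were deposited. To make them, the authors aligned reads to mm10 with minimap2, dropped secondary alignments and ran htseq-count on the UCSC iGenomes annotation. Direct RNA was counted by strand. Direct RNA reads had been freed of chimeras and cDNA reads of adaptors, and PCR copies cannot be removed from cDNA counts. Reads given to no gene (the 5 counters of each file) entered no test. Unassignable (ambiguous) reads were 2.16% to 2.33% of gene and ambiguous reads in Direct RNA and 7.65% to 8.45% in cDNA.

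Groups and replicate numbers came from the labels. Following the study's settings, DESeq2 1.42.0 in R 4.3.3 was run on all 24421 genes of each comparison, with shrunken log2 fold changes, no Cook's cutoff and no independent filtering. The interaction was fitted without shrinkage and called on the adjusted p alone. edgeR 4.0.16 with TMM factors was the alternative. Other alternatives were TMM in DESeq2, a minimum of 10 reads, no shrinkage, a replicate block and leaving out each library. The fits were tested on simulated data. Where a member had no Undiff read, the fold is a lower bound from 3 reads over the group and the pooled Day4 reads, rounded down. With 1 to 3 reads an exact counting interval is given. Adjusted p-values are Benjamini-Hochberg values over all genes. Transcript lengths, exon overlaps and the homeoboxes came from GENCODE vM21 on GRCm38 and promoters from RefSeq on GRCm38.p6. The authors' annotation is another one, so lengths may differ from the models counted.

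All 9 members are named, with the 5 genes most like their sum, the genes that overlap them and the 2 highest and 2 lowest called genes of each list. The members and lists were chosen with earlier results of these data known. Some Hox values and sequences are not reported here.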

Additional observations from a re-analysis of the deposited data

How the results depend on the processing

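Hoxb1, Hoxb7 and Hoxb9 in Direct RNA and Hoxb8 and Hoxb9 in cDNA had mean counts below 5 and could not be called at any fold. edgeR, TMM factors, the minimum of 10 reads and no shrinkage left 6 and 7 members called between states, but edgeR called 6 between platforms at Day4. Leaving out 1 library at a time gave 4 to 6 members in Direct RNA, 4 to 7 in cDNA, 1 to 2 between platforms and 0 for the interaction.

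The replicate block reduced the calls between states to 1 member in Direct RNA (Hoxb8) and 3 in cDNA (Hoxb1, Hoxb3 and Hoxb6), and to 1 and 3 without shrinkage, whereas the block in edgeR, chosen after seeing the data like the block without shrinkage, gave 6 and 7. In the shrunken fit the block took the log2 fold of Hoxb2 in Direct RNA from 7.39 to 1.49 and of Hoxb5 in cDNA from 8.504 to 1.77. Without shrinkage it left these at 9.28 against 9.27 and 10.39 against 10.38, with larger errors (SE 4.21 against 1.52, and 4.00 against 1.51), and in cDNA moved Hoxb7 from 3.83 to 4.37 and Hoxb9 from 3.28 to 2.35. Differences between replicates correlated at 0.214 (Direct RNA) and 0.5 (cDNA) between states over 1395 genes, and with 2 pairs the numbers were not taken to pair the samples. Between platforms the correlation was 0.124 in Undiff and -0.416 at Day4, and the block and a crossed pairing added afterwards each gave 3 members.

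The interaction estimate changed sign with edgeR for Hoxb1 (-0.56) and Hoxb9 (0.18). With libraries left out it ran from -0.26 (without cDNA Day4 replicate 1) to 2.18 for Hoxb1, from -1.22 to 0.18 for Hoxb4, from -1.34 to 0.057 for Hoxb6 and from -3.52 to 1.91 for Hoxb7. For Hoxb4, Hoxb6 and Hoxb7 the positive values came without cDNA Undiff replicate 1 and, for Hoxb4 (0.17) and Hoxb6 (0.055), also without Direct RNA Undiff replicate 2, always at an adjusted p of 1. The cause was not tested. Scaled by all reads, those on no gene included, the summed HoxB level at Day4 was 401 in Direct RNA and 245 in cDNA per 1000000 reads, and with DESeq2 size factors 479 in Direct RNA and 472 in cDNA. The 3′ share was 76.5% and 90.4% with Hoxb5 included. The Spearman coefficient of level and paralog number was -0.233 in Direct RNA with median coding lengths, -0.733 in cDNA with plain CPM and -0.567 to -0.517 in the single cDNA libraries.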
